A study of Mus musculus with 8 samples.

Results

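Expression of 35 genes of cholesterol and fatty acid synthesis was compared between kidneys labelled knockout for Tfap2b and kidneys labelled wildtype. The genes were chosen by name, and each of the 35 had a row among the 37583 gene rows of the count files. They comprised 17 enzymes of sterol synthesis, 5 genes of SREBP control, 6 genes of sterol transport, esterification and efflux, and 7 genes of fatty acid and glycerolipid synthesis. All 35 passed the filter on low counts, which kept 15228 genes in all.

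Cells make cholesterol from acetyl-CoA through mevalonate, squalene and lanosterol, and make fatty acids from the same precursor through malonyl-CoA. The sterol regulatory element-binding proteins (SREBPs), encoded by Srebf1 and Srebf2, are held in the endoplasmic reticulum with their escort SCAP by INSIG proteins while sterols are plentiful, and are released to activate these genes when sterols run low. Surplus sterol instead activates the LXR receptors, which raise the efflux pumps Abca1 and Abcg1, and proximal tubule cells of the kidney both take up and handle large amounts of lipid.

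In the series, 4 whole-kidney RNA libraries of genotype b-actinCreERT2+TFAP2Bfl/fl, in which a ligand-inducible Cre recombinase under a beta-actin promoter can delete the floxed Tfap2b gene, were set beside 4 libraries labelled WT. That promoter is active in most cell types, so the deletion is not restricted to the kidney. The labels give neither the age of the mice, nor the inducing agent and its timing, nor whether the controls carried the floxed alleles or the recombinase. They do not say whether each library is a separate animal, so p-values measure only the spread between these libraries. Total gene counts ranged from 13435113 to 17930347 per library. Whole-gene counts of Tfap2b itself, an AP-2 transcription factor of the distal nephron, were 237.0 to 266.5 CPM (gene counts scaled to a common library size with TMM factors) for knockout 1 to 4 and 94.3 to 110.5 CPM for wildtype 1 to 4, higher under the knockout label (log2 fold change 1.25 ± 0.074 (SE), edgeR adjusted p = 4.18e-06). Because every exon is counted together, deleted or not, this value does not check the deletion, and each group is named as labelled. Knockout 4 stood apart in adrenal cortex transcripts, with a summed level of 249 CPM over 9 markers against 7.64 to 10.8 CPM in the other 7 libraries, where Nr5a1 had 0 to 2 counts. Kidney markers were present throughout but differed between the groups: of 8 distal tubule markers, 6 fell and 2 rose. Umod was at 3164 to 3844 CPM in knockout 1 to 4 and at 5895 to 7730 CPM in wildtype 1 to 4 (edgeR adjusted p = 0.000575), and Slc12a3 at 580 to 670.4 CPM and 1157 to 1728 CPM (adjusted p = 0.000218).

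The bases just before the start of these genes are shown because most sterol synthesis members share a feature there that their choice did not use. In RefSeq promoter windows (build GRCm38.p6), 28 of the 35 genes had an entry, and the 250 bases before each start were searched on both strands for CCAAT, the box bound by NF-Y, a partner of SREBPs, and for TCACNCCA, a core of the sterol regulatory element (SRE). CCAAT was present for 13 of 14 sterol synthesis genes, 4 of 5 SREBP control genes, 3 of 4 transport genes and 1 of 5 fatty acid genes, against 37.5% of all 27025 genes in the table. Some genes had several starts, and a gene was counted if any of its windows matched, here and over all genes. Dhcr7, Pmvk, Insig2 and Srebf1 also had windows without CCAAT. By window, the share over all genes was 33.9%. The SRE core was present for 2 of the 28, Msmo1 and Srebf2, against 4.20% of all genes. The windows below run 5′ to 3′ on the strand of the gene and end at the last base before its start. Capitals mark the matches to either motif on either strand, and the only overlap is between the last 2 CCAAT matches of Fasn, on opposite strands. Cyp51, Ebp and Stard5 were called as falling below, Msmo1 and Srebf2 held both motifs, and Fasn was the 1 fatty acid gene with CCAAT. Stard4, also called as falling, had no entry, nor had Fdps, Fdft1, Sqle, Abcg1, Scd1 and Scd2. Every window printed holds CCAAT, and no gene without it is printed, so the selection does not relate the motif to the calls. Windows of the 2 genes called as rising below are not printed. Of these, Soat1 had CCAAT 30 bases before its start, and Abca1 had neither motif.
Cyp51, chr5:4104698-4104947, minus strand: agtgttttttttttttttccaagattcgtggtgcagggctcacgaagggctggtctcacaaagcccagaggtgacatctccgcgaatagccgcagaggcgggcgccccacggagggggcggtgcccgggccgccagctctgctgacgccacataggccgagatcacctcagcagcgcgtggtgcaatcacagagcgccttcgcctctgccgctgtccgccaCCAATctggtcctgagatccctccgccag
Ebp, chrX:8193513-8193762, minus strand: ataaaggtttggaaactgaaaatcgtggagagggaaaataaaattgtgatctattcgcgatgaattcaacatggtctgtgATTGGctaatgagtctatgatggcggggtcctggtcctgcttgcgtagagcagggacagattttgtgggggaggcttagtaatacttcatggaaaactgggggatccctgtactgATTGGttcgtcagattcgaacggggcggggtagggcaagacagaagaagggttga
Msmo1, chr8:64733579-64733828, minus strand: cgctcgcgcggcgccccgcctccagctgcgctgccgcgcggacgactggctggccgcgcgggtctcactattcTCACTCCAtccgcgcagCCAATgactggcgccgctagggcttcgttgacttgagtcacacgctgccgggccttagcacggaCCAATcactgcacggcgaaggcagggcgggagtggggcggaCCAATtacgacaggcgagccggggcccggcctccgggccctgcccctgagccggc
Srebf2, chr15:82147019-82147268, plus strand: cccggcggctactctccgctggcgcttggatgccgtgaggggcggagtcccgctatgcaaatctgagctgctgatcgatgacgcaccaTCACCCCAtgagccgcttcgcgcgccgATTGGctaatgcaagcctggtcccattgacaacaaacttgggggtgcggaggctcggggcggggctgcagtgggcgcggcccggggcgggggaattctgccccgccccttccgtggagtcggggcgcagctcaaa
Stard5, chr7:83631767-83632016, plus strand: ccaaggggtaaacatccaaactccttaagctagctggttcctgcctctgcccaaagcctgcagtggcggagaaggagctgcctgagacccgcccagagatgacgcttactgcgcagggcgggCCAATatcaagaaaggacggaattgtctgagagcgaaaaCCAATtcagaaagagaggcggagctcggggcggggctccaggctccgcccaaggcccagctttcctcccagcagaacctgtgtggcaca
Fasn, chr11:120824548-120824797, minus strand: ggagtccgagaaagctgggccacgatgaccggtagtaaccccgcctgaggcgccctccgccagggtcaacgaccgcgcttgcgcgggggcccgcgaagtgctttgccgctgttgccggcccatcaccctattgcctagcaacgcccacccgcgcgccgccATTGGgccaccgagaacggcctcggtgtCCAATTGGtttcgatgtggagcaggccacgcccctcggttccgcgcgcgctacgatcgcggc
The first base of CCAAT or its complement lay 29 bases before the start in Cyp51, 170 and 55 bases before it in Ebp, and 128 and 89 bases before it in Stard5. A match is a description of these letters and not of a bound site.

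Most of the 35 genes gave no call between the groups. By edgeR's quasi-likelihood test with Benjamini-Hochberg adjustment over all 15228 genes (adjusted p under 0.05), 6 of the 35 were called, 2 rising and 4 falling, which is 17.1% of them against 11.9% of all genes tested. The called genes were Cyp51 and Ebp of sterol synthesis and Stard4, Stard5, Abca1 and Soat1 of sterol transport. Their changes were small, from 1.22-fold lower for Ebp to 1.37-fold higher for Abca1. The median log2 fold change over the 35 was 0.00, and over all genes it was also 0.00. The groups did not overlap for 5 of the 35, against 18.5% of all genes. The libraries labelled knockout lay above for 2 (9.42% of all genes) and below for 3 (9.05%). For 26 of the 35 the 95% interval of the change lay within 1.5-fold in either direction, and for 33 within 2-fold; the 2 exceptions were Fasn and Acaca.

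**Figure D1:**
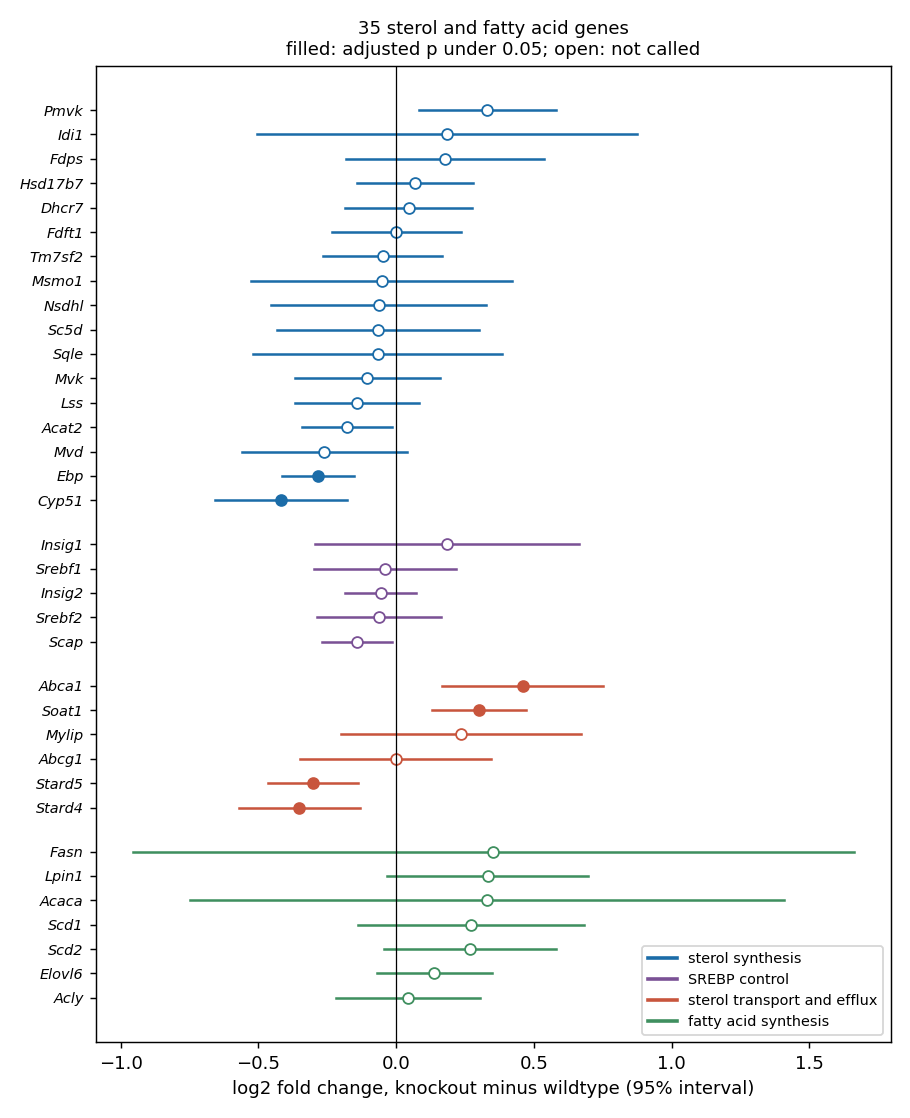
Log2 fold change of each of the 35 genes, libraries labelled knockout minus those labelled wildtype (n = 4 each), with 95% intervals from edgeR; colours give the 4 roles and filled points the genes called at adjusted p under 0.05. The 6 filled points lie between -0.42 and 0.46, and the intervals of Fasn and Acaca are the widest.

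The enzymes from acetyl-CoA to squalene gave no call. Of these 7, Acat2, the cytosolic thiolase that joins acetyl-CoA units, stood at 63.7, 62.7, 64.4 and 67.5 CPM in knockout 1 to 4 and at 70.1, 77.6, 65.3 and 79.4 CPM in wildtype 1 to 4. The groups overlapped in 1 pair, knockout 4 and wildtype 3, and the log2 fold change was -0.18 ± 0.074 (SE; edgeR adjusted p = 0.147). Pmvk, phosphomevalonate kinase, stood at 21.7, 28.4, 23.5 and 28.6 CPM against 23.4, 19.7, 18.9 and 19.4 CPM. Wildtype 1 lay inside the knockout range, and the log2 fold change of 0.33 ± 0.11 missed the threshold (edgeR adjusted p = 0.0831); it was called without knockout 1 (0.40, adjusted p = 0.0357). Mvd, which decarboxylates mevalonate diphosphate, was at 36.9 and 36.6 CPM in knockout 1 and 2, below the 49.5 to 59.7 CPM of the libraries labelled wildtype, and at 48.4 and 56.1 CPM in knockout 3 and 4 (log2 fold change -0.26 ± 0.13, adjusted p = 0.245). Mevalonate kinase Mvk, the prenyl synthase Fdps and squalene synthase Fdft1 had log2 fold changes of -0.10, 0.18 and 0.00. Idi1, the isopentenyl diphosphate isomerase, was the least abundant of the 35, at 0.753 to 1.90 CPM over the 8 libraries, and its interval of 0.70-fold to 1.83-fold was wide.

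Of the 10 enzymes from squalene to cholesterol, Cyp51 and Ebp fell and none rose. At unadjusted p under 0.05, 4 of the 17 sterol synthesis genes passed, Pmvk upward and Acat2, Cyp51 and Ebp downward. The share of all genes at that unadjusted threshold was not computed, so the count cannot be set against it, here or in later lists. By DESeq2 and by limma voom the called genes were Cyp51 and Ebp, both falling. Those are 2 falling of 17, against 5.7% of all genes falling and 6.23% rising. The median log2 fold change of the 17 was -0.06, with 11 negative and 6 positive. Cyp51, the lanosterol demethylase, was the most abundant of the sterol enzymes per length, at 104 CPM per kilobase of exon in the libraries labelled wildtype, followed by Ebp at 48.8. In every other sterol enzyme that level was 28.7 or lower.

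Cyp51 (ENSMUSG00000001467) stood at 346, 313, 364 and 356 CPM in knockout 1 to 4 and at 495, 494, 361 and 495 CPM in wildtype 1 to 4. Wildtype 3 lay at the level of the libraries labelled knockout, so the groups overlapped, while the other 3 libraries labelled wildtype stood at 494 to 495 CPM. The means were 345 ± 22.4 and 461 ± 66.8 CPM (SD, n = 4 each), a decrease of 1.34-fold (log2 fold change -0.42 ± 0.11 (SE), edgeR adjusted p = 0.0301). The call was kept in 3 of 8 fits that left out 1 library. It ended without knockout 2, knockout 4, wildtype 1, wildtype 2 or wildtype 4 (log2 fold changes of -0.37 to -0.43, adjusted p = 0.0644 to 0.0883). Without wildtype 3 the log2 fold change was -0.52 (adjusted p = 0.00518).

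Ebp (ENSMUSG00000031168), the sterol isomerase that acts late in the pathway, stood at 89.1, 91.1, 94.5 and 96.0 CPM in knockout 1 to 4 and at 117.8, 110.9, 109.5 and 112.8 CPM in wildtype 1 to 4. Every library labelled knockout lay below every one labelled wildtype, and the spread within each group was small. The means were 92.7 ± 3.16 and 112.8 ± 3.62 CPM (SD, n = 4 each), a decrease of 1.22-fold (log2 fold change -0.28 ± 0.059 (SE), edgeR adjusted p = 0.011). Of the 6 called genes it was the 1 whose call was kept in all 8 fits that left out a library (adjusted p = 0.0222 to 0.037). Without both knockout 1 and knockout 4, Ebp had the same log2 fold change of -0.28 and missed the threshold (adjusted p = 0.069), as did Cyp51 at -0.45 (adjusted p = 0.121), Abca1 at 0.31 (adjusted p = 0.155) and Soat1 at 0.32 (adjusted p = 0.095), while Stard4 and Stard5 were called.

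The remaining 8 enzymes of this stretch showed no shift beyond their spread. Sqle, squalene monooxygenase and a rate-controlling step, ranged from 88.4 to 122.5 CPM in the libraries labelled knockout and from 88.0 to 156.9 CPM in those labelled wildtype (log2 fold change -0.07 ± 0.20, edgeR adjusted p = 0.864; interval 0.70-fold to 1.30-fold). Lss, which closes the sterol rings, had -0.14 ± 0.10, and the demethylation enzymes Msmo1, Nsdhl and Hsd17b7 had -0.05 ± 0.21, -0.06 ± 0.17 and 0.07 ± 0.096. The reductases Tm7sf2 and Dhcr7 had -0.05 ± 0.098 and 0.05 ± 0.11, and the desaturase Sc5d had -0.07 ± 0.16. A p that misses the threshold does not show that these levels were equal; the intervals of all 8 lay within 1.5-fold in either direction.

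The same libraries stood high or low for many of the sterol genes. Knockout 4 was the highest of its group for 13 of the 17 sterol synthesis genes, and wildtype 3 was the lowest of its group for 12. Wildtype 2 was the highest of all 8 libraries for 8 genes. Msmo1 showed this order, at 40.7, 42.7, 40.3 and 62.5 CPM in knockout 1 to 4 and at 51.0, 63.7, 34.2 and 44.3 CPM in wildtype 1 to 4. Knockout 4 was also the library with adrenal cortex transcripts, a tissue that uses much cholesterol; the part of those cells in its levels was not tested. Without knockout 4 the log2 fold change of Msmo1 was -0.23.

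**Figure D2:**
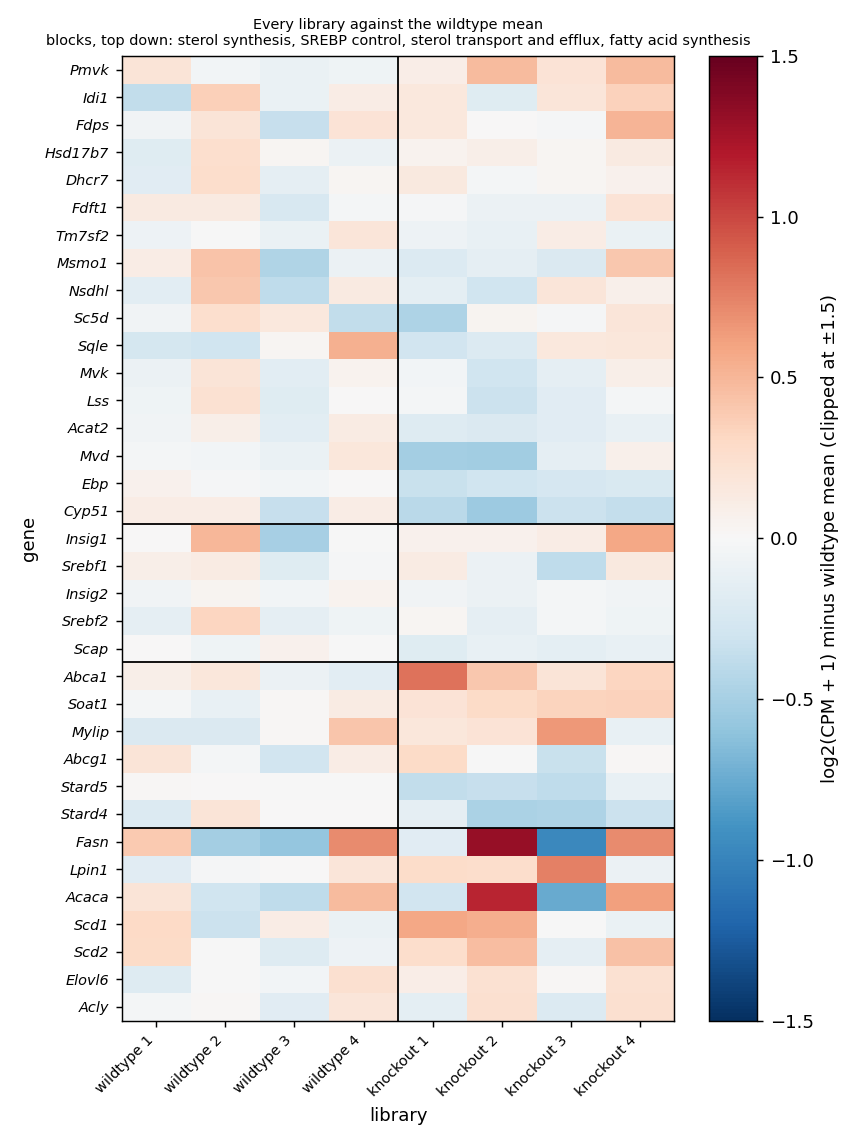
Level of the 35 genes in each library as log2(CPM + 1) minus the mean of the 4 libraries labelled wildtype; columns are libraries, rows genes in 4 blocks by role, red above and blue below that mean (clipped at ±1.5). Cyp51 is blue in all libraries labelled knockout and in wildtype 3, and Fasn and Acaca are strongly red in knockout 2 and blue in knockout 3.

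None of the 5 genes that control SREBP activity was called. By edgeR the count was 0 in each direction, and DESeq2 and limma voom also called 0. At unadjusted p under 0.05, 1 passed by edgeR, Scap, again without a share of all genes to set it against. Srebf1 ranged from 65.3 to 94.7 CPM in the libraries labelled knockout and from 75.4 to 93.1 CPM in those labelled wildtype (log2 fold change -0.04 ± 0.12, adjusted p = 0.86; interval 0.81-fold to 1.16-fold). Srebf2 ranged from 105.8 to 119.1 CPM and from 106.5 to 146.3 CPM (-0.06 ± 0.10, adjusted p = 0.738; interval 0.82-fold to 1.12-fold). Both intervals exclude a change of 1.5-fold in the level of the messenger RNA, and transcript levels say nothing of the proteolytic release that activates the proteins.

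Scap, the escort that carries SREBPs out of the endoplasmic reticulum, stood at 90.3, 94.5, 91.9 and 94.5 CPM in knockout 1 to 4 and at 102.4, 98.1, 106.6 and 102.0 CPM in wildtype 1 to 4. The groups did not overlap, but the difference of 1.10-fold did not pass adjustment (log2 fold change -0.14 ± 0.058, edgeR adjusted p = 0.14). Insig1, a retention protein and itself a sensitive SREBP target, stood at 39.9, 39.7, 41.0 and 57.2 CPM against 38.1, 54.1, 26.5 and 37.7 CPM. Knockout 4 and wildtype 2 were its high libraries and wildtype 3 its low one, the same libraries as for Msmo1, and the log2 fold change was 0.19 ± 0.21 (adjusted p = 0.621). Insig2, the isoform less dependent on SREBP, was the steadiest of the 5, at 60.7 to 63.4 CPM and 62.1 to 67.0 CPM (-0.06 ± 0.059, adjusted p = 0.585).

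Of the 6 genes of sterol transport, 2 rose, 2 fell and 2 did not pass, where 6.23% of all genes rose and 5.7% fell. With limma voom, Soat1 and Stard5 were called, and Abca1 (0.45, adjusted p = 0.0534) and Stard4 (-0.35, adjusted p = 0.0507) were not. The median log2 fold change was 0.12, with members moving in both directions. Abca1, the pump that moves cholesterol onto apolipoprotein A-I, stood at 84.5, 63.6, 54.9 and 59.9 CPM in knockout 1 to 4 and at 50.7, 53.7, 44.6 and 42.5 CPM in wildtype 1 to 4. The groups did not overlap, with knockout 3 at 54.9 CPM just above wildtype 2 at 53.7 CPM and knockout 1 the highest. The means were 65.7 ± 13.0 and 47.9 ± 5.22 CPM (SD, n = 4 each), an increase of 1.37-fold (log2 fold change 0.46 ± 0.13 (SE), edgeR adjusted p = 0.0484). The call was kept in 1 of 8 fits that left out a library, the one without knockout 3; without knockout 1 the log2 fold change was 0.31 (adjusted p = 0.0558), and over all 8 fits it lay between 0.31 and 0.54 (adjusted p = 0.0302 to 0.118).

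Soat1, which esterifies cholesterol for storage, stood at 30.9, 32.7, 33.9 and 34.1 CPM in knockout 1 to 4 and at 26.0, 24.5, 27.1 and 29.2 CPM in wildtype 1 to 4. Every library labelled knockout lay above every one labelled wildtype, and the increase was 1.23-fold (log2 fold change 0.30 ± 0.078, edgeR adjusted p = 0.03). The call was kept only without knockout 1 or wildtype 4 among the 8 fits that left out a library; without knockout 4, the library with adrenal transcripts, the log2 fold change was 0.28 (adjusted p = 0.0795), and over the 8 fits it lay between 0.26 and 0.34 (adjusted p = 0.0259 to 0.0799). Macrophages are rich in Abca1 and Soat1, and their markers moved with the groups: 9 of 10 rose, Csf1r did not, none was at 0, and the summed level was 335 to 555 CPM for knockout 1 to 4, above the 183 to 228 CPM of wildtype 1 to 4. Knockout 1, which had the highest marker sum, was the highest library for Abca1 and the lowest of its group for Soat1. Because the marker levels of the groups did not overlap, their part and that of the genotype cannot be told apart. In whole-kidney RNA, more cells of a type and more RNA per cell cannot be told apart either. Abcg1, another efflux pump and LXR target, stood at 9.39 to 15.0 CPM and 9.78 to 14.0 CPM (log2 fold change 0.00 ± 0.16, adjusted p = 0.995). Mylip, an LXR-induced ubiquitin ligase, ranged from 55.2 to 94.9 CPM and from 51.4 to 80.4 CPM (0.24 ± 0.19, adjusted p = 0.478).

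Both START-domain carriers that move sterol through the cytosol fell. Stard5 stood at 121.5, 123.7, 120.6 and 146.3 CPM in knockout 1 to 4 and at 159.1, 157.8, 157.0 and 157.2 CPM in wildtype 1 to 4. The libraries labelled wildtype were nearly equal, all libraries labelled knockout lay below them, and knockout 4 lay closest. The means were 128.0 ± 12.2 and 157.8 ± 0.951 CPM (SD, n = 4 each), a decrease of 1.23-fold (log2 fold change -0.30 ± 0.074 (SE), edgeR adjusted p = 0.0237). Without knockout 4 the log2 fold change was -0.37 (adjusted p = 0.00877). In the GENCODE annotation, 22.0% of the exon length of Stard5 overlaps exons of Il16, where counting without strand cannot tell the genes apart. The same holds for 18.3% of Fdft1 (with Ctsb), 13.2% of Scap, 12.1% of Tm7sf2 and 3.76% of Cyp51 (with Akap9). Records marked as ambiguous, 2.17% to 2.42% per library, sat in a summary row outside the tests. Reads in shared stretches may therefore be missing from a gene rather than credited to it, which was not tested.

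Stard4, a carrier under SREBP control, stood at 136, 108, 108 and 120 CPM in knockout 1 to 4 and at 130, 171, 151 and 150.0 CPM in wildtype 1 to 4. Knockout 1 lay above wildtype 1, so the groups overlapped, and the decrease was 1.28-fold (log2 fold change -0.35 ± 0.10, edgeR adjusted p = 0.0441). Knockout 1 and wildtype 1 were also the libraries whose circadian clock scores (10 output genes against 5 activator genes, as a difference of mean log2 levels) crossed between the groups, at 1.10 and 0.457, where the other libraries labelled knockout had -1.25 to -0.441 and the other libraries labelled wildtype 1.69 to 2.81. With that score as a term, 5 of the 6 calls ended. Over all genes, rising calls went from 949 to 527 and falling calls from 868 to 241. The score itself differed between the groups (means of -0.381 labelled knockout and 1.73 labelled wildtype). This fit therefore cannot cleanly separate score from label. The log2 fold change became smaller for Stard4 (-0.09, adjusted p = 0.726) and larger for Cyp51 (-0.57, adjusted p = 0.0677) and Abca1 (0.65, adjusted p = 0.0827). It was 0.28 for Soat1 (adjusted p = 0.249) and -0.32 for Stard5 (adjusted p = 0.161), and Ebp kept its call at -0.36 (adjusted p = 0.0436). Among the 8 fits that left out a library, the call of Stard4 was kept without knockout 1 or wildtype 1 (-0.28 to -0.43, adjusted p = 0.0167 to 0.127 over the 8), and that of Stard5 without knockout 1 or knockout 4 (-0.27 to -0.37, adjusted p = 0.00877 to 0.0711). Markers of several kidney cell types fell in the same comparison, where 5.7% of all genes fell: 6 of 8 distal tubule markers (2 rose), 3 of 10 proximal tubule, 2 of 4 podocyte and 2 of 5 endothelial markers, with none rising in the last 3 lists. The summed level was 7279 to 7832 CPM in knockout 1 to 4 and 11677 to 13597 CPM in wildtype 1 to 4 for the distal list. For the proximal list it overlapped, at 22493 to 29734 CPM and 28778 to 35932 CPM. It also overlapped for the podocyte list (348 to 463 and 445 to 595 CPM) and the endothelial list (285 to 336 and 324 to 443 CPM). No marker of these lists was at 0, and their part in the decreases of Cyp51, Ebp, Stard4 and Stard5 was not tested.

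**Figure D3:**
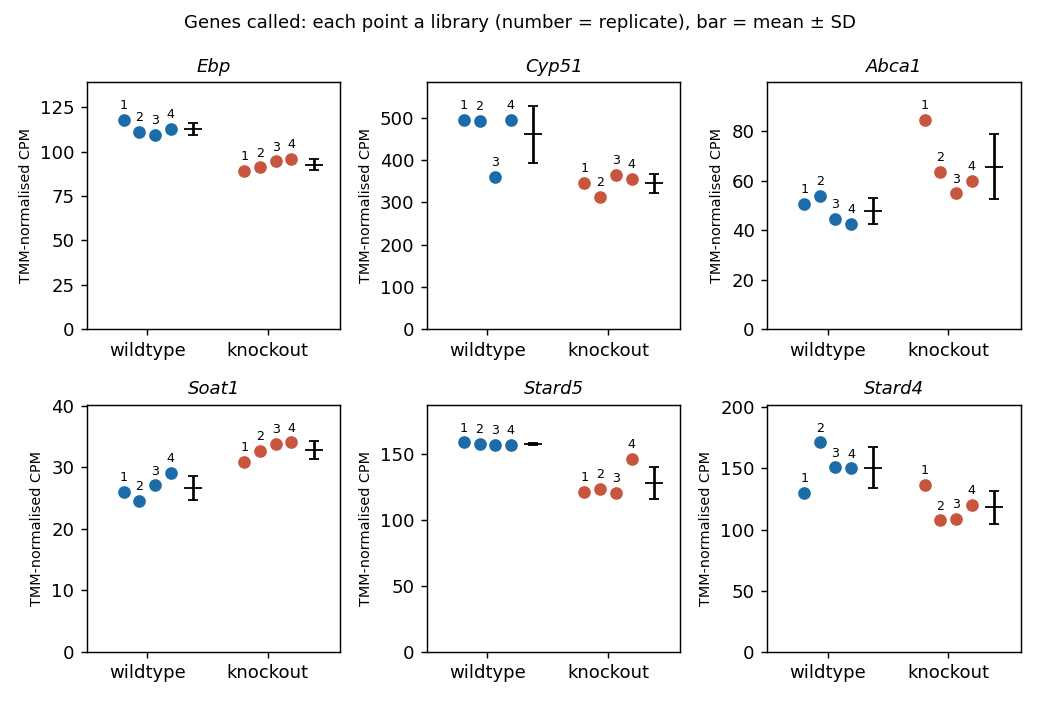
TMM-normalised CPM of the 6 called genes in each library (points, numbered by replicate) with the mean and SD of each group (n = 4). For Ebp, Abca1, Soat1 and Stard5 the groups do not overlap, whereas wildtype 3 for Cyp51, and knockout 1 and wildtype 1 for Stard4, cross over.

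The falling calls differed between scalings. With DESeq2 size factors all 4 were kept. With library totals in place of TMM factors, the all-gene median rose from 0.00 to 0.11 on the log2 scale, and none of the 4 falling members was called: Cyp51 had -0.31 (adjusted p = 0.0625), Ebp -0.18 (adjusted p = 0.0646), Stard4 -0.25 (adjusted p = 0.139) and Stard5 -0.20 (adjusted p = 0.104). In that fit Abca1, Soat1 and Pmvk were called, all rising, and 76.5% of all calls were upward against 52.2%. The fold changes of all genes move together by that shift.

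All 7 genes of fatty acid and lipid synthesis had a positive log2 fold change and none was called. By edgeR 0 passed adjustment and 0 had an unadjusted p under 0.05, and DESeq2 and limma voom called 0. The median of the 7 was 0.27, from 0.04 for Acly, which makes cytosolic acetyl-CoA from citrate, to 0.35 for Fasn. Scd1, the stearoyl-CoA desaturase, was the most abundant per length of the 35, at 239 CPM per kilobase in the libraries labelled wildtype. It stood at 1729, 1683, 1152 and 1077 CPM in knockout 1 to 4 and at 1424, 926, 1249 and 1076 CPM in wildtype 1 to 4, with knockout 1 and 2 above all other libraries (log2 fold change 0.27 ± 0.18, adjusted p = 0.381). Scd2 had 0.27 ± 0.14, the elongase Elovl6 0.14 ± 0.095, and Lpin1, a phosphatidate phosphatase, 0.33 ± 0.16 (adjusted p = 0.253, 0.384 and 0.224).

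Fasn and Acaca varied most between libraries. Fasn, the fatty acid synthase, stood at 294, 817, 168 and 540.1 CPM in knockout 1 to 4 and at 432, 232, 220.0 and 540.2 CPM in wildtype 1 to 4. Acaca, which makes malonyl-CoA, followed the same order at its extremes, at 19.9, 55.5, 14.1 and 38.1 CPM against 28.3, 19.7, 18.7 and 34.6 CPM. Knockout 2 was the highest and knockout 3 the lowest of all 8 libraries for both genes. Their log2 fold changes of 0.35 ± 0.55 and 0.33 ± 0.46 (edgeR adjusted p = 0.73 and 0.693) had intervals of 0.52-fold to 3.17-fold and 0.60-fold to 2.65-fold, so a 2-fold increase lay inside both. Without knockout 2 both turned negative, at -0.09 and -0.08.

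Adipocyte transcripts moved with Fasn and Acaca. All 10 adipocyte markers were tested and none was called (edgeR; none was at 0 in any library), but their summed level ran from 371 CPM in knockout 3 to 1488 CPM in knockout 2 and from 273 CPM in wildtype 2 to 1036 CPM in wildtype 1. Adipoq, an adipocyte hormone gene, was at 59.2 CPM in knockout 2 and at 14.2 CPM in knockout 3. Over the 8 libraries, log2(CPM + 1) of Fasn correlated with the mean log2(CPM + 1) of the markers at Pearson's r = 0.87 (exact two-sided permutation p = 0.00451) and Spearman's rho = 0.79 (exact p = 0.0279). For Acaca, r was 0.86 (exact permutation p = 0.00583) and rho 0.81 (exact p = 0.0218). The relation was computed for all 35 genes after these values had been seen, and neither gene passed adjustment over the 35 (adjusted exact permutation p = 0.102 for each r and 0.326 for each rho). Without knockout 2 and wildtype 2, the libraries farthest from the median of the score, r was 0.80 for both, and with both measures centred on their group means it was 0.87 and 0.86. The largest rho of the 35 was that of Srebf2, in the opposite direction at -0.83 (exact permutation p = 0.0154, adjusted 0.326; r = -0.72, or -0.56 without those 2 libraries). In the fatty acid list Lpin1 also ran the other way, with r = -0.29, -0.48 with group means removed and -0.92 without those 2 libraries. Each group alone held too few libraries for a coefficient. In a fit added once these values were known, with the score as a covariate, the log2 fold changes were -0.08 ± 0.30 for Fasn and -0.04 ± 0.24 for Acaca.

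**Figure D4:**
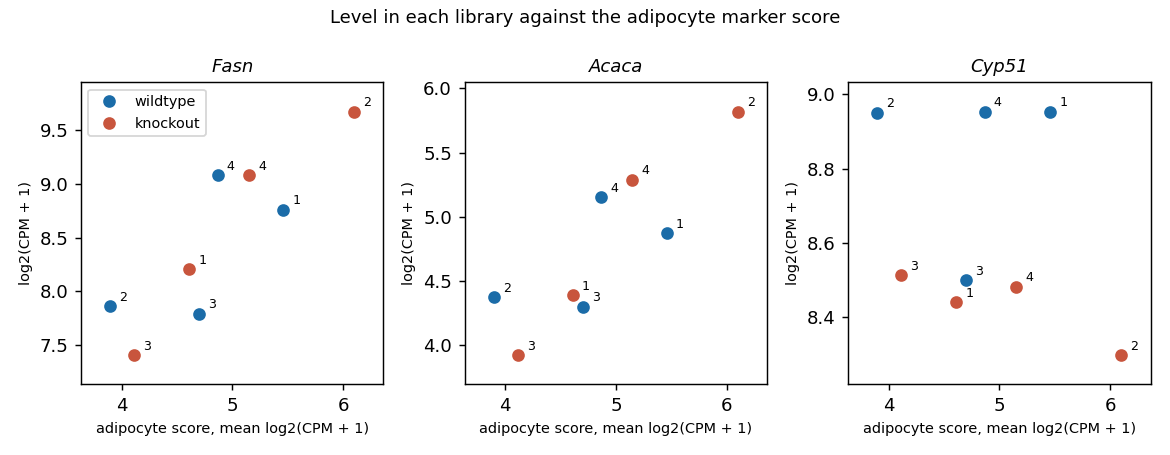
Level of Fasn, Acaca and Cyp51 as log2(CPM + 1) in each library (points, numbered by replicate; n = 4 per group) against the mean log2(CPM + 1) of 10 adipocyte markers. Fasn and Acaca rise with the score across both groups (r = 0.87 and 0.86), and Cyp51 has r = -0.31, or 0.55 without knockout 2 and wildtype 2.

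Of 40 other genes of the pathway, 39 had a row, 38 were tested, 1 rose and 4 fell. Their median log2 fold change was -0.09, and the 5 calls were 13.2% of the tested genes, near the 11.9% of all genes. Nceh1, a hydrolase of cholesterol esters, fell by 0.59 ± 0.13 (SE) on the log2 scale, from 632, 631, 753 and 886 CPM in wildtype 1 to 4 to 462, 411, 543 and 509 CPM in knockout 1 to 4 (edgeR adjusted p = 0.0122). Acss2, which makes acetyl-CoA from acetate, fell by 0.41 ± 0.088 (adjusted p = 0.012), and Nr1h3, which encodes LXR alpha, fell by 0.31 ± 0.082 (adjusted p = 0.0317). For each of these 3 the groups did not overlap. Lpin2, another phosphatidate phosphatase, rose by a log2 fold change of 0.33 ± 0.097 (adjusted p = 0.0464), also with no overlap. Nr1h3 was lower in the libraries labelled knockout while its target Abca1 was higher and its target Abcg1 had a change of 0.00.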

How the data were processed

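Whole-kidney RNA was sequenced in 8 libraries, 4 labelled knockout and 4 wildtype. The deposited values are whole-number counts of reads per gene, not normalised; the submitters' processing notes name the build mm9 and the tools STAR, HTSeq and edgeR. Versions, gene annotation and what each tool did: not given in the sources used here. Per the labels' protocols the library kit marks strand, but the files are named as not stranded, so reads of overlapping genes on opposite strands cannot be told apart. Counted records were 63.8% to 69.1% of all, and summary rows stayed out of the tests. Intervals cover counting error and library spread as edgeR models them.

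Symbols came from a gene name table. Genes were filtered with filterByExpr, scaled by TMM and fitted without covariates by edgeR 4.0.16 in R 4.3.3 (robust quasi-likelihood test, two-sided), with adjustment over all 15228 genes. CPM per kilobase uses GENCODE M21 exon length. The 35 members and all lists were chosen with earlier results of these data known. All members are accounted for; of other pathway genes, those called are named, except 1 that is not reported here. Other settings were DESeq2 1.42.0 and its size factors, library totals, limma 3.58.1 voom, no filter, a stricter filter (at least 1 CPM in at least 4 libraries), a replicate block, clock and adipocyte scores as terms, and leaving out libraries. Tested on simulated data of 15228 genes, the fit recovered 52% of 50 genes changed 1.5-fold and 80% of 50 changed 2-fold. Labels do not tie replicates to litters or days, and same-numbered libraries deviated together in 1 of 4 pairs (correlations of -0.22, -0.21, -0.05 and 0.16).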

Additional observations from a re-analysis of the deposited data

Results flagged for a closer look

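In 70 groups of 4 values, 35 genes in each genotype, 6 had a library far from the other 3, measured as its gap to the nearest divided by the range of the group; chance gives about 1 in 20. Knockout 4 was the highest for Msmo1 (0.8942, 62.5 CPM against 40.3 to 42.7), Insig1 (0.9286, 57.2 CPM against 39.7 to 41.0) and Stard5 (0.8809, 146.3 CPM against 120.6 to 123.7). Wildtype 3 was the lowest for Cyp51 (0.9911, 361 CPM against 494 to 495). Wildtype 2 was the highest for Srebf2 (0.8630, 146.3 CPM against 106.5 to 111.9), and knockout 3 for Tm7sf2 (0.8528, 20.4 CPM against 17.4 to 17.8).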

How the results depend on the processing

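Of the 6 calls, DESeq2, no filter and the stricter filter kept all 6. With DESeq2 size factors 5 were kept, and 1 transport gene rose. With limma voom 4 were kept, with 1 transport gene rising, 1 falling and 0 other pathway genes rising. With library totals 2 were kept: sterol synthesis had 1 rising and 0 falling, transport 0 falling, other pathway genes 4 rising, and all genes 1658 rising and 508 falling. With the replicate block 1 was kept: sterol synthesis had 0 falling, transport 1 rising and 0 falling, other pathway genes 0 rising and 2 falling, and all genes 577 rising and 517 falling. The numbers do not pair the samples, and the 5 genes that lost their call under the block had log2 fold changes of -0.41 (Cyp51), -0.28 (Ebp), 0.30 (Soat1), -0.35 (Stard4) and -0.31 (Stard5). With the clock score as a term 1 was kept, Ebp: sterol synthesis had 1 falling, transport 0 in each direction, other pathway genes 0 in each direction, and all genes 527 rising and 241 falling. With the adipocyte score as a term 4 were kept, with 1 transport gene rising, 1 falling and 0 other pathway genes rising. Without knockout libraries 1 and 4, 2 were kept: sterol synthesis had 0 falling, transport 0 rising, other pathway genes 2 falling, and all genes 502 rising and 410 falling. The causes of these changes were not tested, except that fewer libraries were fitted in the last.

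Leaving out 1 library at a time gave 488 to 963 falling and 588 to 977 rising genes over all; 1 to 2 falling and 0 to 1 rising in sterol synthesis; 0 to 2 falling and 0 to 1 rising in transport; 3 to 5 falling and 0 to 1 rising among other pathway genes; and 0 in SREBP control and fatty acid synthesis.

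Genes without a call changed sign under these settings (log2 fold change). Without knockout libraries 1 and 4, Idi1 was at -0.024, Fdps -0.024, Fdft1 -0.099 and Dhcr7 -0.012. With library totals, Sqle was at 0.036, Tm7sf2 0.056, Msmo1 0.052, Nsdhl 0.037, Sc5d 0.037, Srebf1 0.067, Srebf2 0.042, Insig2 0.049 and Abcg1 0.11. With the clock score, Fdft1 was at -0.12, Srebf1 0.036, Insig1 -0.022, Abcg1 0.077, Acly -0.062, Acaca -0.17 and Fasn -0.22. With the adipocyte score, added after seeing the data, Nsdhl was at 0.0090, Acly -0.011, Acaca -0.039 and Fasn -0.083. With size factors, Fdft1 was at -0.00017. With no filter, Fdft1 was at -0.0027. With DESeq2, Fdft1 was at -6.1e-06. With the stricter filter, Abcg1 was at 0.0011. Leaving out 1 library at a time gave ranges that include 0, of -0.077 to 0.044 for Fdft1, -0.17 to 0.14 for Sqle, -0.10 to 0.018 for Tm7sf2, -0.23 to 0.11 for Msmo1, -0.18 to 0.088 for Nsdhl, -0.18 to 0.054 for Sc5d, -0.011 to 0.14 for Dhcr7, -0.11 to 0.063 for Srebf1, -0.11 to 0.057 for Srebf2, -0.12 to 0.11 for Abcg1, -0.030 to 0.12 for Acly, -0.084 to 0.58 for Acaca and -0.092 to 0.63 for Fasn. Depth limits Idi1 most, at 0.753 to 1.90 CPM.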

Other observations

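Thrsp, a lipogenic regulator of the other pathway genes, was named after its values were seen. It stood at 26.6, 129, 17.1 and 107 CPM in knockout 1 to 4 and at 77.1, 18.8, 17.6 and 56.4 CPM in wildtype 1 to 4, with knockout 2 and 4 and wildtype 1 and 4 high. Ucp1, the thermogenic gene of brown and beige adipocytes, stood at 10.1, 198, 21.8 and 93.3 CPM and at 66.0, 33.8, 42.4 and 39.1 CPM, again with knockout 2 highest.

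Wildtype 3, the low library for Cyp51, also had the lowest endothelial and podocyte levels of its group. Its summed level was 324 CPM over 5 endothelial markers, against 438 to 443 CPM in the other libraries labelled wildtype and 285 to 336 CPM in those labelled knockout. Over 4 podocyte markers it was 445 CPM, against 536 to 595 CPM and 348 to 463 CPM.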
